A study of Mus musculus with 64 samples.

Results

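The 39 genes described here encode the proteins that fill a synaptic vesicle, bring it to the active zone and fuse it with the presynaptic membrane. They were listed by name and role, with earlier results of these data known, and some of them (Syn1, Stx1a, Vamp2, Cplx1, Ppfia2, Ppfia3, Lin7c, Rab3a and Slc17a7) are genes that the study itself had named from an interaction of genotype and acute CORT in the same libraries. All 39 were found among the 55414 gene IDs of the acute table and the 55573 of the continuous table, and all 39 passed the filter on low counts in both. By role they comprise 3 synapsins, 7 vesicle membrane proteins, 6 synaptotagmins, 8 SNARE proteins or proteins that handle them, 9 proteins of the active zone, 3 of the Rab3 cycle and 3 vesicular transporters. Their RNA was measured by bulk RNA-seq in the left hippocampus of male mice aged 10 to 18 weeks, F1 hybrids of C57BL/6J males and 129sv Ube3a m+/p- females. The mice were wild type (WT) or carried a maternal deletion of exon 5 of Ube3a (Ube3a m-/p+, Ube3atm1Alb), the mouse model of Angelman syndrome (AS), in which neurons lose the ubiquitin ligase UBE3A while other cells keep the paternal allele. In the acute cohort, corticosterone (CORT), the stress hormone of rodents, was injected subcutaneously at 3 mg/kg, or its vehicle of ethanol in PBS, and tissue was taken 3 h later, with 6 mice in each of 4 groups. In the continuous cohort, mice carried a pellet with 20 mg CORT or a vehicle pellet for 5 days. This cohort had 5 mice per group, of which the study left out 1 AS vehicle mouse (library H9) and 1 WT vehicle mouse (library H13), so that 4 mice remained in each vehicle group.

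Transmitter release is the last step of a cycle that a vesicle passes through many times. Transporters fill the vesicle, synapsins hold it in a reserve cluster, Rab3 and the active zone scaffold place it at the release site, Munc13 proteins prime it, and the SNARE proteins of vesicle and plasma membrane then zip together under the control of complexins and of synaptotagmin, which senses calcium. NSF and its adaptor afterwards take the SNARE complex apart. In the hippocampus most vesicles carry glutamate through VGLUT1 (Slc17a7), and those of inhibitory interneurons carry GABA through VGAT (Slc32a1). Glucocorticoid hormone acts on the same neurons through receptors that bind DNA.

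The promoters of 5 genes are shown because the results turn on them: Syn1, Stx1a and Slc17a7, which were lower in AS mice given acute CORT, and Ppfia2 and Lin7c, which were higher. Each window holds the 250 bases before and 50 after the RefSeq start on GRCm38.p6, 5′ to 3′ on the strand of the gene, and capitals mark the GC box GGGCGG, on either strand, and the left part TTCAGCACC of the neuron-restrictive silencer element (NRSE), the site of the repressor REST. They lie at chrX:20920869-20921168 (minus strand, Syn1), chr5:135023232-135023531 (plus, Stx1a), chr7:45163671-45163970 (plus, Slc17a7), chr10:106470060-106470359 (plus, Ppfia2) and chr2:109890628-109890927 (plus, Lin7c).
Syn1: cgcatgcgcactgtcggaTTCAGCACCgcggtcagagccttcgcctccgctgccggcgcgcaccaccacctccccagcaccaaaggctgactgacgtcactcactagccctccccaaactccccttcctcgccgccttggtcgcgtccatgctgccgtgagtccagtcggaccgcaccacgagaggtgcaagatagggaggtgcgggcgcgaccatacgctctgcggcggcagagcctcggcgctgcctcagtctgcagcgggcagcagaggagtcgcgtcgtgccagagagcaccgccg
Stx1a: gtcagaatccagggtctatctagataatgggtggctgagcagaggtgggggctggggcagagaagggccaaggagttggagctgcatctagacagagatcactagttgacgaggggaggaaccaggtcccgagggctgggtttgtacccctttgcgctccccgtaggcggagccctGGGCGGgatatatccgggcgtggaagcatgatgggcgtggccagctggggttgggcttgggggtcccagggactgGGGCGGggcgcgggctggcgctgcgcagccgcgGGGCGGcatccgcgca
Slc17a7: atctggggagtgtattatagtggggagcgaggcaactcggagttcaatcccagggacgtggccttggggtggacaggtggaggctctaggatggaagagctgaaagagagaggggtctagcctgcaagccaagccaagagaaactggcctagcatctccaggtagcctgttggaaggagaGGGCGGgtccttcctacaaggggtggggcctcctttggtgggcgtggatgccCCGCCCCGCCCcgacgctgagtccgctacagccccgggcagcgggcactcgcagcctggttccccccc
Ppfia2: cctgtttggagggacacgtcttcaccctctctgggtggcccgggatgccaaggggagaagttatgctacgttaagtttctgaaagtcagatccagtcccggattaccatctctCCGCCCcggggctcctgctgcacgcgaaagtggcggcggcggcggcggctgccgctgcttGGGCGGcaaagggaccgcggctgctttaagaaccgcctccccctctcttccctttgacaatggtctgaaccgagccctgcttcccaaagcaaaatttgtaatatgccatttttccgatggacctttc
Lin7c: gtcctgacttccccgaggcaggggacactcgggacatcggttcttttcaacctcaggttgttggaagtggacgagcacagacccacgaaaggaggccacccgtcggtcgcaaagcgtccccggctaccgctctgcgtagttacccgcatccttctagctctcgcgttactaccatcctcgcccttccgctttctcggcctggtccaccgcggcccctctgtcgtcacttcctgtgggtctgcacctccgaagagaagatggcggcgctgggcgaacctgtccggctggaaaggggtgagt

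Of the 39 genes, 31 had a promoter in the RefSeq table, and Syn3, Syngr3, Syt4, Syt5, Syt7, Snap25, Vamp2 and Rims2 had none. Only the first entry of each gene was read, while the 32851 promoters of the background hold every entry. Syn2, Synpr, Sv2b, Syt1, Syt2, Rab3a, Rph3a and Slc17a6 have further entries that were not read. The 31 promoters had a median GC content of 63.3%, against 52.7% over all 32851. The GC box was present in 24 of the 31 (77.4%) and in 35.7% of all promoters. The left part of the NRSE occurred in 3 of the 31 (Syn1, Unc13a and Ppfia3, 9.68%) and in 0.371% of all. The stretch AGCACCNNGGACAG joins the end of that left part to letters of the right part. As an exact match on either strand it was in 0 of the 31 and in 0.0517% of all. Near matches were not counted, such as that of Syn1, where AGCACC is followed by gcggtcag. The core letters AGAACA of the glucocorticoid receptor site were in 1 promoter, that of Syp (3.23%), and in 19% of all windows. The CRE core letters TGACGT were in 3 (Syn1, Napa and Rab3a, 9.68%, against 7.51%) and the E-box CACGTG was in 3 (Nsf, Napa and Unc13b, 9.68%, against 7.15%). The promoters with an entry among the genes that fell in AS mice after acute CORT ranged in GC content from 51.7% (Vamp1) to 72.3% (Syngr1), which takes in those of the genes that rose, at 58.3% (Ppfia2) and 62.3% (Lin7c). A match of these letters is a description and not a bound site.

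Depth was even, with 19049461 to 21052967 counts on genes per acute library and 19112929 to 21783009 per continuous hippocampal library. The acute libraries H17 to H24 (H17 and H18 from AS vehicle mice, the other 6 from all AS CORT mice) held 2640 to 2850 reads that the counting set aside for low alignment quality, against 1877 to 2237 in H1 to H16. No WT mouse was on the H17 to H24 side, so the division and genotype cannot be told apart among CORT mice. Counts over all exons of Ube3a, 70.0 ± 11.05 to 74.7 ± 5.20 CPM over the 4 acute groups, do not check the deletion of 1 exon. The summed level of 5 neuronal markers was 4218 to 5462 CPM in the acute libraries, with all 5 detected. CPM here are counts scaled to library size after TMM normalization. Differences are log2 values from edgeR's quasi-likelihood test with their standard error (SE), p-values are Benjamini-Hochberg adjusted over all genes tested, and "rose", "fell", "higher" or "lower" with no other qualification means an adjusted p-value under 0.05.

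The levels of the 39 genes spanned from under 1 to about 500 RPKM (counts per kilobase of exon, scaled to library size), the scale used to compare genes. In acute WT vehicle mice, complexin 2 (Cplx2), which clamps and promotes SNARE-driven fusion, was highest at 504 ± 43.7 RPKM (mean ± SD, n = 6). It was followed by the glutamate transporter Slc17a7 (393 ± 39.4 RPKM), the vesicle SNARE Vamp2 (326 ± 22.97 RPKM) and synapsin 1 (Syn1, 325 ± 39.5 RPKM). The lowest were Slc17a6, the glutamate transporter of thalamus and brain stem (1.62 ± 0.669 RPKM), the priming factor Unc13b (1.498 ± 0.144 RPKM) and Syn3 (1.081 ± 0.255 RPKM). Neighbours in this order overlapped between mice in 34 of 38 pairs in the acute cohort and in 25 of 38 in the continuous one. The clear steps in the acute order lay below Nsf (159 ± 14.4 RPKM, above Rph3a at 121 ± 14.8), below Slc32a1 (38.1 ± 1.94, above Syt4 at 31.2 ± 2.78), below Rims1 (27.1 ± 4.82, above Pclo at 16.3 ± 3.13) and below Rims2 (7.15 ± 0.778, above Syt2 at 3.10 ± 0.319).

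In several families the levels of the members lay far apart. Unc13a, the main Munc13 of cortical neurons, had 39.1 ± 1.93 RPKM and Unc13b 1.498 ± 0.144. Among Rab3 GTPases, Rab3a had 285 ± 12.3 RPKM and Rab3b 8.45 ± 0.817. Of the SV2 proteins, which sit in the vesicle membrane, Sv2a had 109.7 ± 9.66 RPKM, Sv2b 38.4 ± 9.99 and Sv2c 2.41 ± 0.566. Among synaptotagmins the fast calcium sensor Syt1 had 190.2 ± 29.5 RPKM, with Syt11 close to it at 162 ± 15.01. Syt7 had 74.4 ± 6.52, Syt5 64.1 ± 3.93, Syt4 31.2 ± 2.78 and Syt2, the counterpart of Syt1 in hindbrain and in some interneurons, 3.10 ± 0.319 RPKM. Of the scaffolds of the active zone, bassoon (Bsn) had 53.4 ± 8.45 RPKM and piccolo (Pclo) 16.3 ± 3.13.

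The cohorts were normalized separately. In continuous WT vehicle mice Syn1 had 189.6 ± 11.3 RPKM, Bsn 27.5 ± 3.93, Pclo 9.13 ± 1.199 and Syn3 0.582 ± 0.105 (n = 4), all below the acute values, while Vamp1 had 16.2 ± 0.348 against 12.1 ± 1.30 and Lin7c 20.4 ± 1.15 against 15.4 ± 1.17. Cohort, vehicle and time differ together here and cannot be told apart, so that no test was made.

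**Figure D1:**
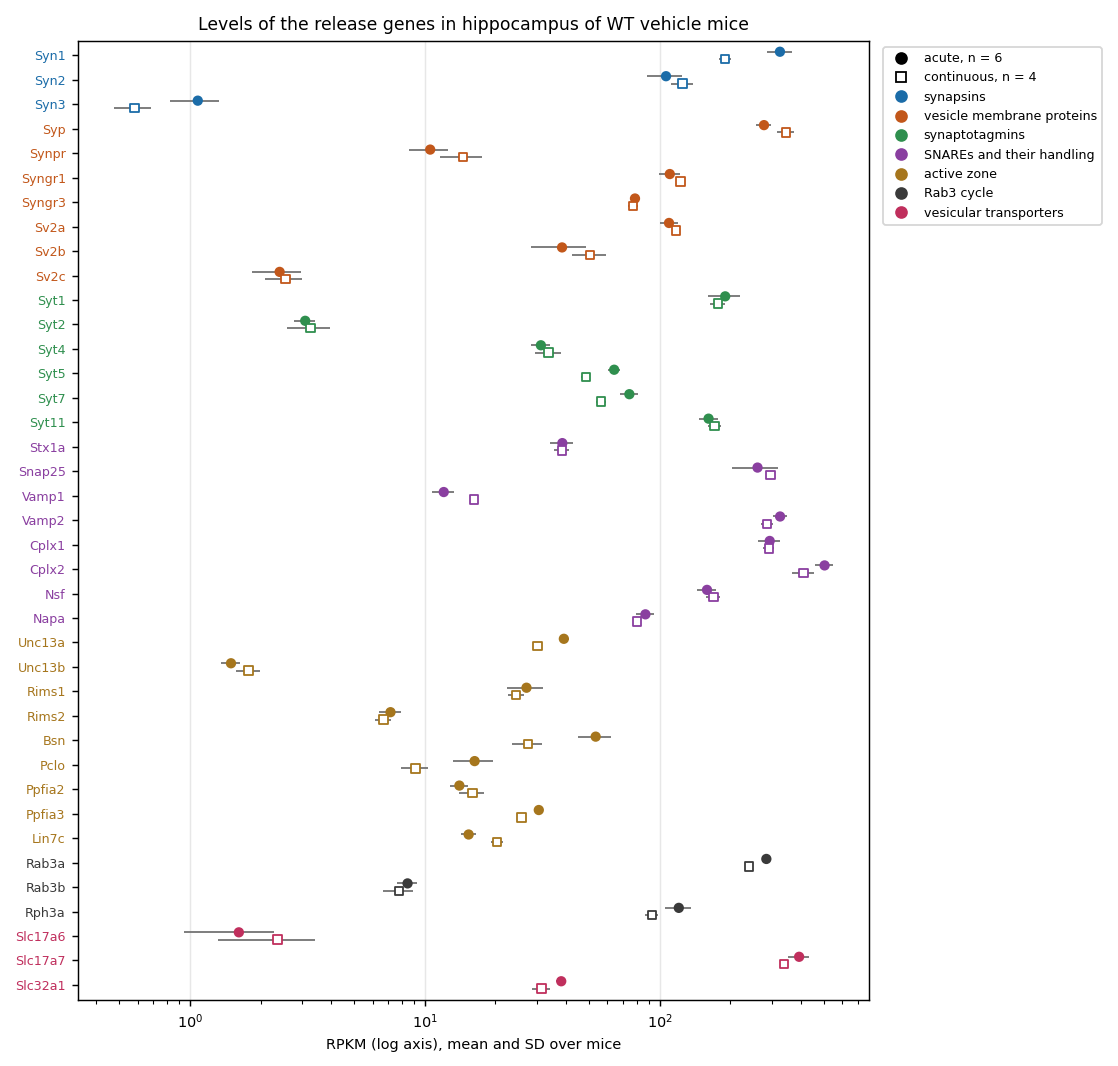
Level of each of the 39 genes in WT vehicle mice on a log axis in RPKM, as mean and SD over mice, with filled circles for the acute cohort (n = 6), open squares for the continuous cohort (n = 4) and colours for the role. Cplx2 stands at the right end, and Syn3, Unc13b and Slc17a6 at the left end, in both cohorts.

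The spread between mice of one group was that of other genes. Pooled over groups, the SD was a median of 11.7% of the mean for the 39 genes and 10.9% for the 14611 genes tested in the acute cohort, and 9.05% and 9.18% in the continuous cohort. Unc13a varied least in the acute cohort (4.52%) and Ppfia3 in the continuous one (3.64%). Slc17a6 varied most in both, at 55.7% and 76.3%.

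Whether a single CORT injection changed these genes was asked first in WT mice, where none of the 39 passed the threshold. Over all genes tested, 1.48% did. The members had 0 with an unadjusted p-value under 0.05, DESeq2 also called 0, and the smallest adjusted p-value was 0.471. Their log2 differences had a median of 0.04 and ran from -0.23 to 0.28, with a median SE of 0.0912. The calcium sensor Syt1 had -0.03 (SE 0.103, adjusted p = 0.944) and the priming factor Unc13a -0.03 (SE 0.0452, adjusted p = 0.884). Syn1, at 0.15 (SE 0.0913, adjusted p = 0.592), and Vamp1, at 0.19 (SE 0.0913, adjusted p = 0.471), were among those with the smallest p-values.

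In AS mice the same injection was followed by lower levels of 12 of the 39 genes and higher levels of 2. The genes that fell were Syn1, Syp, Syngr1, Sv2a, Syt5, Stx1a, Vamp1, Vamp2, Cplx1, Rab3a, Slc17a7 and Slc32a1, and those that rose were Ppfia2 and Lin7c. These 14 of 39 stand beside 17.9% of all genes tested, and the 12 lower and 2 higher beside 9.62% and 8.25%. The AS CORT libraries also entered the interaction from which some members had been named, so these counts are not independent of the choice. The median log2 difference over the 39 was -0.15, against 0.01 over all genes. DESeq2 called 17, the 14 and also Synpr, Ppfia3 and Rab3b, and 19 had an unadjusted p-value under 0.05. The calls did not hold when the division of the libraries at H17 entered as a covariate, which sets the AS CORT mice against H17 and H18 alone: 0 of the 39 then passed (background 1.03%), and 1 reached an unadjusted p-value under 0.05. In WT mice the covariate left 0 members called (background 1.62%). In bulk tissue, fewer cells of a type and less RNA per cell cannot be told apart.

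In the following, values before a log2 difference are the lowest, median and highest of the 6 mice of a group. Among the synapsins, which tether vesicles to each other, Syn1 had 917, 1067 and 1303 CPM in WT vehicle, 1023, 1208 and 1347 CPM in WT CORT, 908, 1189 and 1273 CPM in AS vehicle and 753, 816 and 919 CPM in AS CORT mice. All AS CORT mice lay below all WT CORT mice, and they touched the AS vehicle mice only at the lowest of these. Syn1 fell in AS mice, at a log2 difference of -0.45 (SE 0.0915, adjusted p = 0.00176), to 0.732 of the vehicle level. With the covariate the difference was -0.19 (SE 0.109, adjusted p = 0.737). Syn2, at -0.16, and the scarce Syn3, at 0.11, did not pass.

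Of the vesicle membrane proteins, 3 of 7 fell. Synaptophysin (Syp), the most abundant of them, had 1276, 1456 and 1609 CPM in WT vehicle, 1376, 1596 and 1696 CPM in WT CORT, 1374, 1656 and 1718 CPM in AS vehicle and 1164, 1353 and 1508 CPM in AS CORT mice. Its groups overlapped, and the difference in AS mice was -0.22 (SE 0.0711, adjusted p = 0.0307), with the covariate -0.15 (SE 0.0981, adjusted p = 0.810). Sv2a, the binding site of the antiepileptic drug levetiracetam, had 445, 503 and 575 CPM in WT vehicle, 469.8, 539 and 575 CPM in WT CORT, 445, 558 and 644 CPM in AS vehicle and 402, 441 and 521 CPM in AS CORT mice. The AS CORT mice reached up into the range of each other group, and the difference was -0.30 (SE 0.0765, adjusted p = 0.00984), with the covariate -0.12 (SE 0.0976, adjusted p = 0.859). Syngr1, a relative of synaptophysin, fell, at -0.31 (SE 0.0815, adjusted p = 0.0111), with the covariate -0.15 (SE 0.107, adjusted p = 0.831). Synpr, at 0.36 (SE 0.127, adjusted p = 0.0513), was the member of this role with the largest difference above 0. Syngr3, Sv2b and Sv2c ran from -0.27 to 0.13 and did not pass.

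Of the synaptotagmins, most of them calcium sensors, 1 of 6 passed. Syt1 had 1284, 1593 and 1972 CPM in WT vehicle, 1133, 1628 and 1770.5 CPM in WT CORT, 1418, 1617 and 1831 CPM in AS vehicle and 1356, 1545 and 1841 CPM in AS CORT mice. The 4 ranges overlapped, and the difference in AS mice was -0.07 (SE 0.103, adjusted p = 0.660). Syt7, a slow sensor of asynchronous release and facilitation, had 505, 554 and 637 CPM in WT vehicle, 502, 555 and 646 CPM in WT CORT, 470.1, 575 and 679 CPM in AS vehicle and 490.1, 519 and 647 CPM in AS CORT mice. Here too the ranges overlapped, with a difference of -0.06 (SE 0.0841, adjusted p = 0.670). Syt2, Syt4 and Syt11 ran from -0.23 to -0.09 and did not pass. Syt5 fell, at -0.18 (SE 0.0638, adjusted p = 0.0492), a call kept in 16 of 24 fits with 1 library left out. With the covariate it had -0.15 (SE 0.0895, adjusted p = 0.759).

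Of the 8 SNARE proteins and their handlers, 4 fell. Stx1a, the plasma membrane SNARE syntaxin 1A, had 86.7, 102 and 116 CPM in WT vehicle, 91.3, 118 and 129 CPM in WT CORT, 96.2, 119 and 145 CPM in AS vehicle and 75.9, 86.2 and 93.7 CPM in AS CORT mice. Each AS CORT mouse was below each AS vehicle mouse, and the difference of -0.50 (SE 0.102, adjusted p = 0.00205), 0.709 of the vehicle level, was the most negative of the 39. Vamp2, the vesicle SNARE of fast release in forebrain, had 1137, 1219 and 1401 CPM in WT vehicle, 1182, 1339 and 1449 CPM in WT CORT, 1108, 1372 and 1487 CPM in AS vehicle and 925, 1003 and 1142 CPM in AS CORT mice. The AS CORT mice lay below all WT CORT mice and overlapped the AS vehicle mice in the lowest of those, with a difference of -0.39 (SE 0.0718, adjusted p = 0.000838). Cplx1 had 534, 647 and 741 CPM in WT vehicle, 608, 755 and 782 CPM in WT CORT, 569, 701 and 815 CPM in AS vehicle and 473, 533 and 631 CPM in AS CORT mice. The AS CORT and AS vehicle ranges overlapped at their ends, and the difference was -0.38 (SE 0.0914, adjusted p = 0.00614). Vamp1, the SNARE of hindbrain and fast interneurons, fell, at -0.27 (SE 0.0917, adjusted p = 0.0454), a call kept in 16 of 24 fits with 1 library left out. It overlaps Cd27 and Tapbpl on the other strand, whose reads may be counted with it if the counting did not use strand. In all 29 of the 39 members overlap another annotated gene, and the same doubt holds for Syn1 (Araf and Timp1), Syngr1 (Rpl3), Rab3a (Mpv17l2) and Ppfia2 (Acss3), and for Syp (Gm14703) and Slc32a1 (Gm14205) with antisense genes, among those that passed.

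The remaining SNARE-related genes did not pass. Snap25, the third SNARE of the complex, had 1251, 1778 and 2402 CPM in WT vehicle, 1549, 1709 and 1915 CPM in WT CORT, 1460.3, 1741 and 2075 CPM in AS vehicle and 1477, 1752 and 2272 CPM in AS CORT mice. All ranges overlapped, and the difference was 0.06 (SE 0.119, adjusted p = 0.771). Cplx2 had 2108, 2482 and 2695 CPM in WT vehicle, 2402, 2509 and 3088 CPM in WT CORT, 2437, 2569 and 2694 CPM in AS vehicle and 2349, 2604 and 2928 CPM in AS CORT mice. Its difference was 0.04 (SE 0.0666, adjusted p = 0.678), with an opposite sign to that of Cplx1. Nsf, the ATPase that takes SNARE complexes apart, had 1147, 1372 and 1452 CPM in WT vehicle, 1260.5, 1332 and 1400.1 CPM in WT CORT, 1286, 1386 and 1421 CPM in AS vehicle and 1336, 1426 and 1509 CPM in AS CORT mice. Neither Nsf, at 0.06 (SE 0.0533, adjusted p = 0.478), nor its adaptor Napa, at -0.11 (SE 0.0885, adjusted p = 0.404), passed. With the covariate Stx1a had -0.25 (SE 0.129, adjusted p = 0.672), Vamp2 -0.16 (SE 0.0814, adjusted p = 0.633), Cplx1 -0.20 (SE 0.120, adjusted p = 0.757) and Vamp1 -0.03 (SE 0.115, adjusted p = 0.986).

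In the active zone, 2 of 9 genes passed and both rose. Lin7c (Veli3), a small scaffold that links adhesion proteins and receptors, had 62.0, 70.4 and 75.3 CPM in WT vehicle, 53.0, 63.5 and 81.1 CPM in WT CORT, 52.3, 55.5 and 74.7 CPM in AS vehicle and 73.3, 80.7 and 95.9 CPM in AS CORT mice. The AS CORT mice were on top of the other groups, with overlap, and the difference of 0.44 (SE 0.0964, adjusted p = 0.00312) was the highest of the 39. Ppfia2 (liprin-α2), which recruits release proteins, had 137, 153 and 169 CPM in WT vehicle, 119, 147 and 172 CPM in WT CORT, 119.7, 132 and 172 CPM in AS vehicle and 164, 178 and 217 CPM in AS CORT mice. AS CORT mice lay above the AS vehicle median and overlapped the top AS vehicle mouse, with a difference of 0.40 (SE 0.0901, adjusted p = 0.00425). With the covariate these were 0.35 (SE 0.138, adjusted p = 0.410) for Lin7c and 0.19 (SE 0.114, adjusted p = 0.773) for Ppfia2.

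The core scaffolds and priming factors were not among the genes that passed. Unc13a, which opens syntaxin for SNARE assembly, had 459, 492 and 525 CPM in WT vehicle, 446, 492 and 525 CPM in WT CORT, 464, 471 and 491 CPM in AS vehicle and 443, 459 and 502 CPM in AS CORT mice. Its ranges were narrow and overlapped, and its difference was -0.02 (SE 0.0453, adjusted p = 0.794). Rims1, which ties calcium channels and Rab3 to the release site, had 149, 190.3 and 251 CPM in WT vehicle, 148, 224 and 249 CPM in WT CORT, 178, 199 and 220.1 CPM in AS vehicle and 168, 188 and 204 CPM in AS CORT mice. The AS CORT mice lay within the WT ranges, with a difference of -0.10 (SE 0.111, adjusted p = 0.582). Bsn had 654, 852 and 1041 CPM in WT vehicle, 639, 939.8 and 1137 CPM in WT CORT, 813, 878 and 994 CPM in AS vehicle and 668, 792 and 826 CPM in AS CORT mice. The WT CORT mice spread widest, and the difference in AS mice was -0.20 (SE 0.117, adjusted p = 0.229). Pclo had 285, 364 and 455 CPM in WT vehicle, 179, 368 and 449.8 CPM in WT CORT, 319, 403 and 436 CPM in AS vehicle and 300.2, 361 and 400.2 CPM in AS CORT mice. Its difference was -0.15 (SE 0.155, adjusted p = 0.518), within the range between mice. Ppfia3 (liprin-α3) had 233, 239.5 and 258 CPM in WT vehicle, 236, 252 and 275 CPM in WT CORT, 220.1, 238 and 268 CPM in AS vehicle and 202, 221 and 232 CPM in AS CORT mice. Here the AS CORT mice were below all WT mice, and the difference within AS mice was -0.14 (SE 0.0515, adjusted p = 0.0633). Unc13b, at -0.16, and Rims2, at 0.00, did not pass.

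Rab3a, the GTPase that marks filled vesicles, had 604, 631 and 677 CPM in WT vehicle, 581, 654 and 695 CPM in WT CORT, 583, 635 and 679.7 CPM in AS vehicle and 488, 552 and 619 CPM in AS CORT mice. The AS CORT mice were low, with overlap, and Rab3a fell, at -0.18 (SE 0.0563, adjusted p = 0.0262). Its effector Rph3a, at -0.05 (SE 0.103, adjusted p = 0.768), and Rab3b, at -0.31 (SE 0.113, adjusted p = 0.0547), did not pass. With the covariate Rab3a had -0.12 (SE 0.0771, adjusted p = 0.788).

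The transporters of both main transmitters of the hippocampus fell. Slc17a7 had 1766, 2136 and 2420.0 CPM in WT vehicle, 1941, 2229.7 and 2581 CPM in WT CORT, 1962, 2382 and 2647 CPM in AS vehicle and 1752, 1833 and 2004 CPM in AS CORT mice. The AS CORT and AS vehicle ranges met at H17 and H18, and the difference was -0.33 (SE 0.0809, adjusted p = 0.00777). Slc32a1, which fills vesicles of GABAergic and glycinergic neurons, had 98.8, 106 and 114 CPM in WT vehicle, 89.8, 111 and 121 CPM in WT CORT, 78.2, 100.2 and 139 CPM in AS vehicle and 65.1, 81.9 and 90.6 CPM in AS CORT mice. The lowest AS CORT mouse was below every mouse of the other groups, with a difference of -0.39 (SE 0.101, adjusted p = 0.00990). Slc17a6 had 3.13, 9.33 and 13.6 CPM in WT vehicle, 1.88, 9.43 and 22.4 CPM in WT CORT, 2.97, 8.56 and 12.5 CPM in AS vehicle and 3.86, 8.25 and 14.3 CPM in AS CORT mice. The ranges covered each other, and the difference was 0.03 (SE 0.427, adjusted p = 0.968). With the covariate Slc17a7 had -0.09 (SE 0.0949, adjusted p = 0.926) and Slc32a1 -0.16 (SE 0.130, adjusted p = 0.865).

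**Figure D2:**
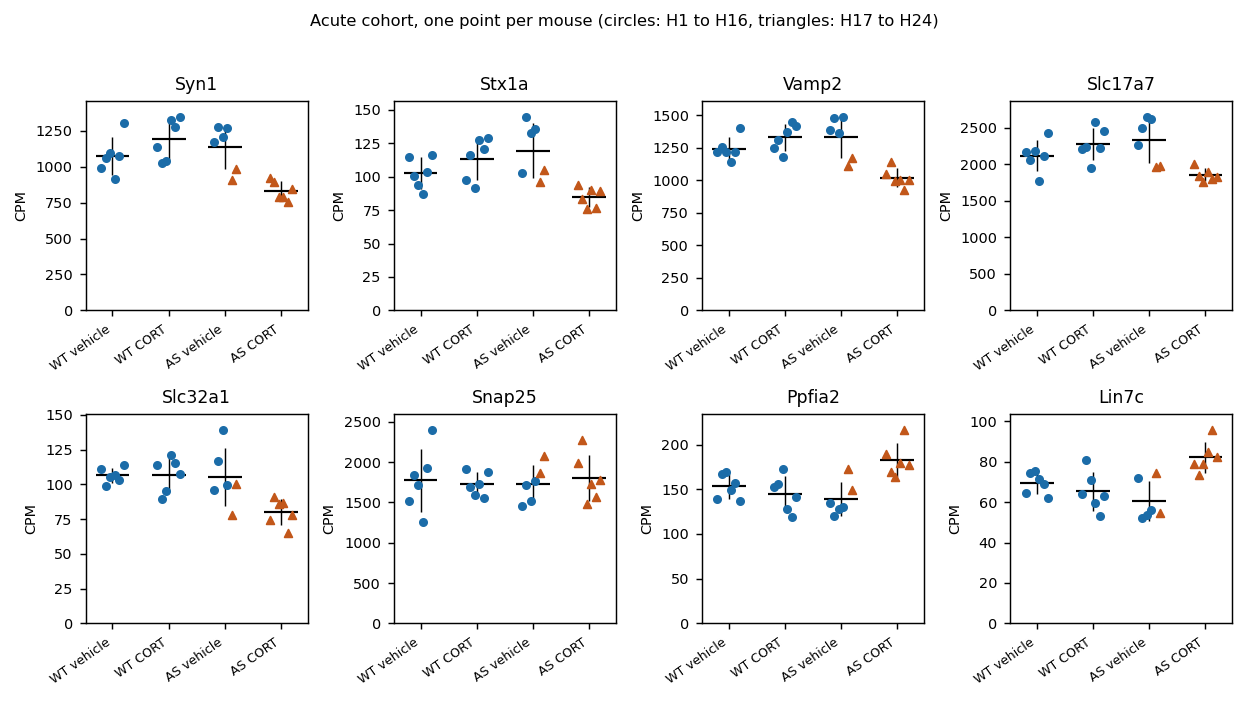
CPM of 8 of the genes in each of the 24 acute mice by group, with the mean as a bar and the SD as a line, circles for libraries H1 to H16 and triangles for H17 to H24. For Syn1, Vamp2 and Slc17a7 the 2 AS vehicle triangles sit below the 4 AS vehicle circles and next to the AS CORT mice.

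Markers of other tissue were read beside these results. The summed level of 6 neocortex markers was 141 to 156 CPM in AS CORT mice, 161 to 210 in AS vehicle and 176 to 203 in WT CORT mice, without overlap, and the AS vehicle mice H17 and H18 had 161 and 175 CPM. The sums of the other lists given here overlapped between AS CORT and AS vehicle mice. The 6 oligodendrocyte markers summed to 1629 to 3258 CPM in AS CORT, 2403 to 4738 in AS vehicle and 1892 to 5795 in WT CORT mice. Endothelial markers summed to 128 to 145 CPM in AS CORT, 144 to 175 in AS vehicle, 140.1 to 185 in WT CORT and 113 to 175 in WT vehicle mice, and 2 of the 6 passed in AS mice after CORT, 1 in each direction. In AS mice 4 of the 6 neocortex markers passed the threshold after CORT, 1 higher and 3 lower, and 2 of the 6 oligodendrocyte markers, both lower, beside 17.9% of all genes tested. No marker of these lists was at 0 in any group. The neuronal list overlapped between AS CORT (4432 to 5462 CPM) and the other groups, and 1 of its 5 genes fell. The 6 markers of hippocampal principal neurons, the cells that carry most Slc17a7, summed to 795 to 1105 CPM in AS CORT, 904 to 1162 in AS vehicle, 973 to 1102 in WT CORT and 978 to 1565 in WT vehicle mice, and 1 of them fell in AS mice after CORT. The 6 GABAergic markers summed to 517 to 735 CPM in AS CORT, 611 to 784 in AS vehicle, 631 to 799.8 in WT CORT and 671 to 789 in WT vehicle mice, and 0 of them passed. Their part in the results of the 39 genes was not tested.

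Between genotypes, no member differed among acute vehicle mice, beside 0.157% of all genes tested (23 genes). The median log2 difference of AS minus WT was 0.05, 2 members had an unadjusted p-value under 0.05, DESeq2 called 0, and the smallest adjusted p-value was 0.348, that of Syngr1 at 0.22. Stx1a had 0.22 (SE 0.102, adjusted p = 0.508) and Lin7c -0.20 (SE 0.0966, adjusted p = 0.524). With the covariate, which sets H13 to H16 against the WT vehicle mice, 0 of 39 passed (background 0.151%) while 9 reached an unadjusted p-value under 0.05. Stx1a had 0.33 (SE 0.102, adjusted p = 0.132) and Slc17a7 0.24 (SE 0.0750, adjusted p = 0.128).

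Among mice given acute CORT, 12 members were lower and 3 higher in AS than in WT mice. All genes tested passed in 24.9%, with 13.2% lower and 11.7% higher. The lower genes were Syn1 at -0.52 (SE 0.0915, adjusted p = 0.000430), Vamp1 at -0.54 (SE 0.0917, adjusted p = 0.000339) and Cplx1 at -0.44 (SE 0.0914, adjusted p = 0.00144), with the 3 most negative values, and Syp, Syngr3, Sv2a, Stx1a, Vamp2, Ppfia3, Rab3a, Slc17a7 and Slc32a1. The 3 higher genes were Synpr at 0.38 (SE 0.127, adjusted p = 0.0288), Ppfia2 at 0.33 (SE 0.0900, adjusted p = 0.00898) and Lin7c at 0.33 (SE 0.0962, adjusted p = 0.0133). By role, the 15 were 1 of 3 synapsins, 4 of 7 vesicle membrane proteins, 0 of 6 synaptotagmins, 4 of 8 SNARE-related genes, 3 of 9 active zone genes, 1 of 3 of the Rab3 cycle and 2 of 3 transporters. DESeq2 also called 15, and 18 had an unadjusted p-value under 0.05. Of the 6 neocortex markers 4 were lower in AS CORT than in WT CORT mice, as were 3 of 6 oligodendrocyte markers and 3 of 6 striatum markers, and their part in the result was not tested. This comparison and the one of CORT with vehicle in AS mice share the 6 AS CORT mice. With the covariate, 0 members passed (background 0) and 0 had an unadjusted p-value under 0.05, and of the 15 genes Sv2a and Slc17a7 changed sign, to 0.01 and 0.05. Over the 39, 11 differences were above 0 and 28 below without the covariate, and 16 above and 23 below with it.

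The response to CORT differed between genotypes for 10 members by the interaction term, 8 more negative and 2 more positive in AS than in WT mice. Over all genes tested 4.49% passed, 3.06% below 0 and 1.43% above. Stx1a, Syn1, Cplx1, Vamp2, Slc17a7, Ppfia2 and Lin7c are among the genes that the study had named for passing its own interaction test in these libraries, so the count is in part fixed by the choice of members, and nothing is read from its distance to the background. The 8 were Stx1a at -0.64 (SE 0.145, adjusted p = 0.0264), Syn1 at -0.60 (SE 0.129, adjusted p = 0.0216), Cplx1 at -0.56 (SE 0.129, adjusted p = 0.0284), Vamp2 at -0.48 (SE 0.101, adjusted p = 0.0216), Vamp1 at -0.45 (SE 0.129, adjusted p = 0.0453), Slc17a7 at -0.43 (SE 0.114, adjusted p = 0.0384), Syngr1 at -0.41 (SE 0.115, adjusted p = 0.0423) and Sv2a at -0.37 (SE 0.108, adjusted p = 0.0480). Ppfia2 at 0.47 (SE 0.127, adjusted p = 0.0390) and Lin7c at 0.53 (SE 0.136, adjusted p = 0.0357) were above 0. For 31 of the 39 members the term was below 0, with a median of -0.19 against 0.01 over all genes. DESeq2 called 14 members, and 17 had an unadjusted p-value under 0.05. The count was 0 without the AS vehicle library H14, 3 to 5 without any 1 of the libraries H2 to H5, H10 to H12, H15, H16 and H22 to H24, and 15 without H17. With the covariate it was 0 (background 0.00684%, 6 members with an unadjusted p-value under 0.05). The members' median was then -0.16, 30 of 39 were below 0, and the median SE was 0.141 against 0.129 without the covariate.

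**Figure D3:**
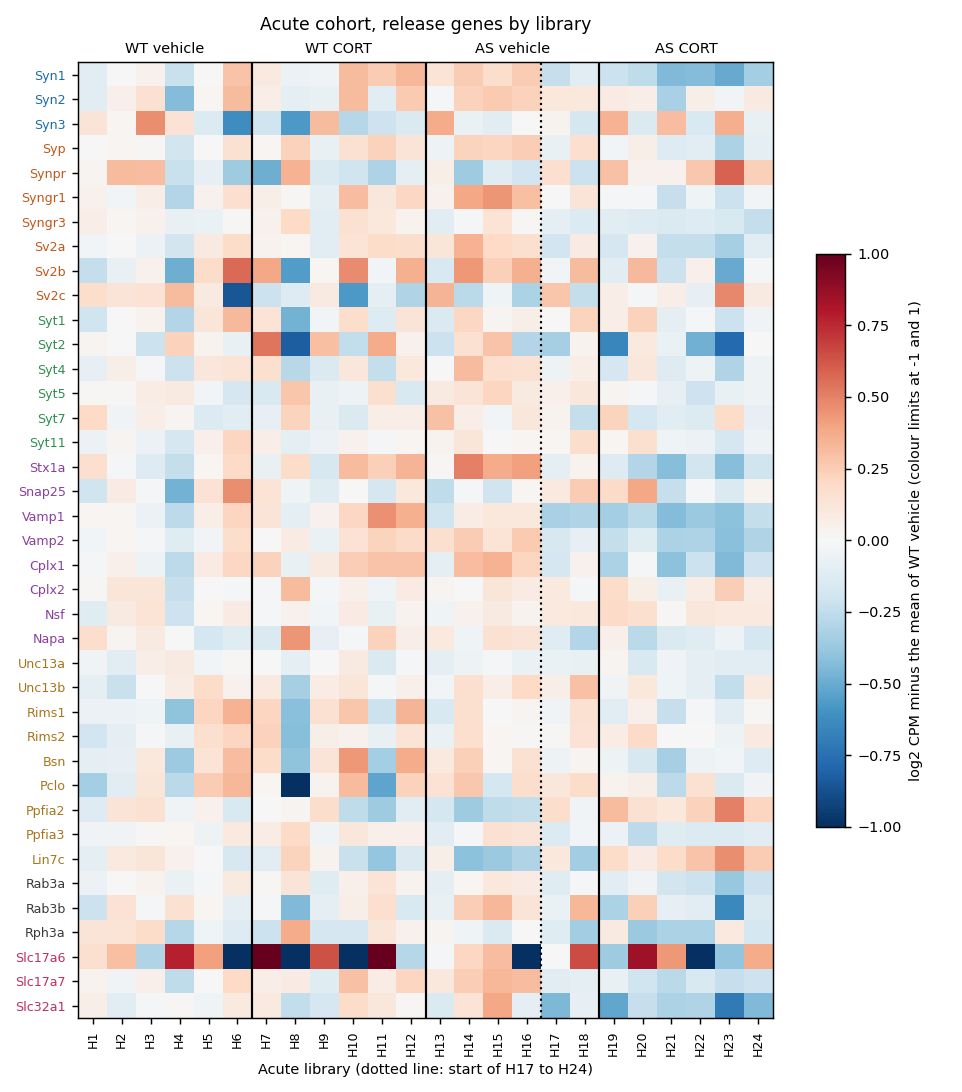
Heat map of the 39 genes (rows, coloured by role) in the 24 acute libraries (columns, by group), as log2 CPM minus the mean of the WT vehicle mice, with colours limited at -1 and 1 and a dotted line at the start of H17. From H17 rightwards Syn1, Stx1a, Vamp1, Vamp2 and Slc32a1 are mostly below 0 and Ppfia2 is mostly above 0. In the AS vehicle library H18, Stx1a is above 0 and Ppfia2 below 0.

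The division itself was then tested among AS vehicle mice, which received the same injection. In 3 members, all lower, the pair H17 and H18 stood apart from the 4 libraries before them, beside 8.23% of all genes tested, of which 3.87% were lower and 4.36% higher. Syn1 had 908 and 985 CPM in H17 and H18, and 1174 to 1273 CPM in H13 to H16, a log2 difference of -0.38 (SE 0.119, adjusted p = 0.0483). Vamp2 had 1108 and 1170 CPM against 1359 to 1487, a difference of -0.33 (SE 0.0882, adjusted p = 0.0228). Slc17a7 had 1962 and 1974 CPM against 2264 to 2647, a difference of -0.35 (SE 0.103, adjusted p = 0.0344). In these 3 genes, H17 and H18 lay apart from H13 to H16 without overlap. The same held for Sv2a, Vamp1, Napa, Nsf, Snap25 and Ppfia2, which did not pass, so this does not set the 3 genes apart. DESeq2 called 3 as well, and 9 had an unadjusted p-value under 0.05. The count was 1 without H15 and 0 without any 1 of H14, H16, H17 and H18. No treatment or genotype separates these mice in the labels. Marker sums also lay apart between H17 and H18 and H13 to H16: astrocytes at 3588 and 3266 CPM against 3822 to 4214, microglia at 265 and 245 CPM against 279 to 333, striatum at 83.4 and 82.1 CPM against 91.8 to 103, blood at 73.8 and 74.9 CPM against 76.3 to 171, and, in the other direction, neurons at 4934 and 5292 CPM against 4487 to 4861. Of these lists 1 astrocyte marker passed the test, and their part in the result was not tested. The sums of the other lists overlapped: hippocampal principal neurons, GABAergic neurons, thalamus, neocortex, choroid plexus, oligodendrocytes and endothelium. With 2 libraries against 4, a list can readily lie apart by chance.

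Other members did not pass between these libraries. Ppfia2 had 172 and 149 CPM in them, 120 to 135 CPM in H13 to H16 and 164 to 217 CPM in AS CORT mice. Stx1a had 96.2 and 105 CPM in H17 and H18, 103 to 145 in H13 to H16 and 75.9 to 93.7 in AS CORT mice, so that each AS CORT mouse remained below both. Lin7c had 74.7 and 54.6 CPM in H17 and H18, far apart from each other. Against H17 and H18, the median log2 difference of the 39 genes in AS CORT mice was -0.12, with 29 below 0 and 10 above, and the most positive was Lin7c. Against H13 to H16 it was -0.18, with 18 members called, 15 lower and 3 higher, beside 31.2% of all genes tested. Only 2 libraries stand behind the first of these comparisons, and a p-value over the threshold does not show that the genes did not differ.

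**Figure D4:**
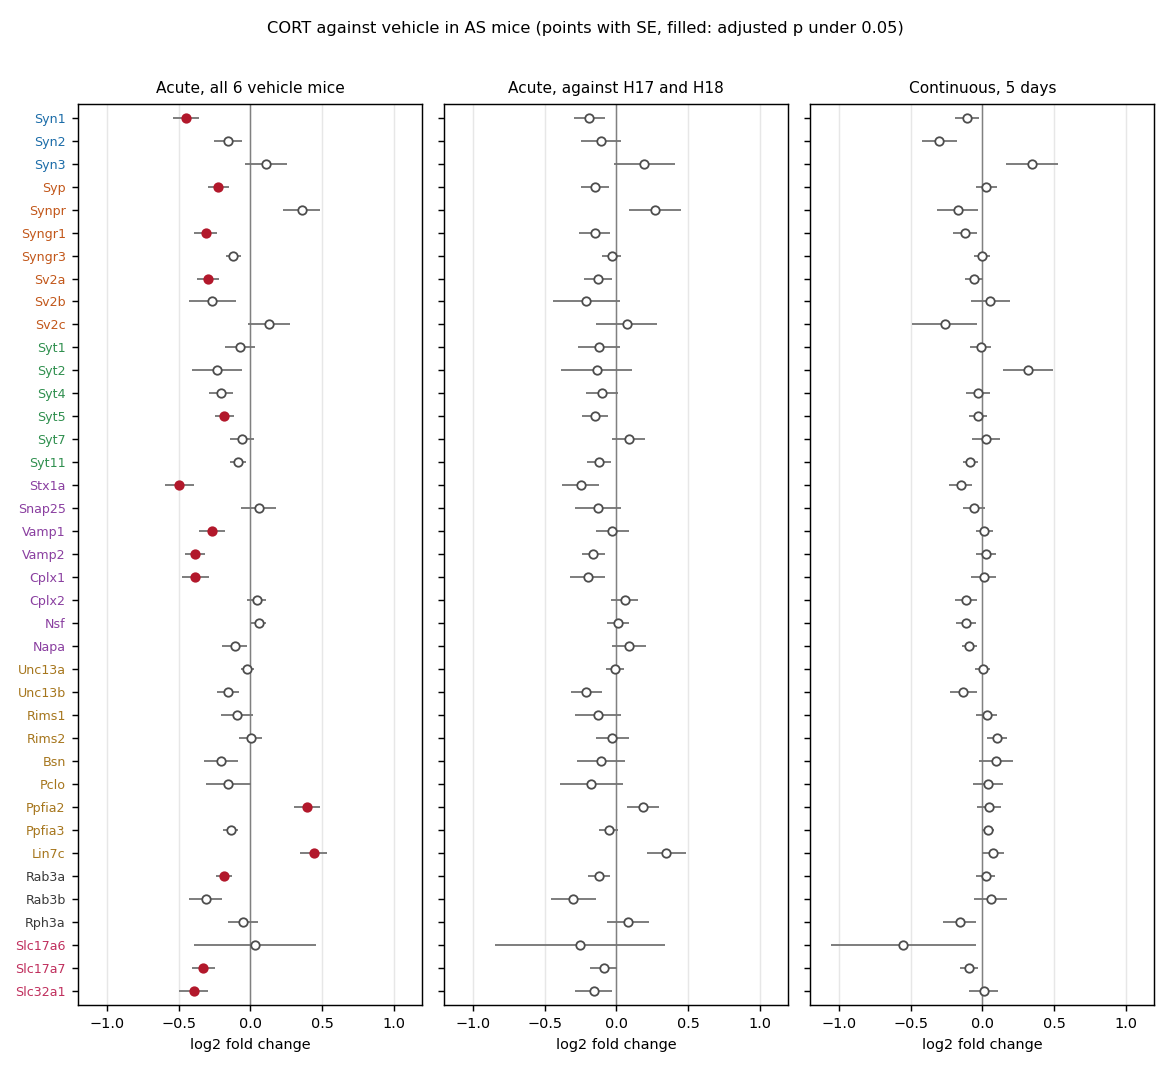
log2 difference between CORT and vehicle in AS mice for the 39 genes, with SE, in the acute cohort against all 6 vehicle mice, against H17 and H18 alone, and in the continuous cohort, with filled points for an adjusted p-value under 0.05. The left panel has 14 filled points, and the other panels have 0.

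Beyond their role, the members that moved up and down differed in base composition. GC content of the longest transcript ran from 37.3% (Lin7c) to 61.9% (Slc32a1) over the 39, with a median of 51.6%, against 49.8% over all genes. The 3 members higher in AS than in WT mice after CORT had a median of 38.9%, the 12 lower ones 56.3% and the other 24 49.3%. Across the 39 genes, the log2 difference of AS CORT minus WT CORT correlated with GC content at Pearson r = -0.62 (Spearman rho = -0.60), and that of AS CORT minus AS vehicle at r = -0.64 (rho = -0.55). For H17 and H18 minus H13 to H16, in which no animal received CORT, r was -0.70 (rho = -0.69). In CORT minus vehicle of WT mice the sign was the other one, at r = 0.42 (rho = 0.48). Over all 14591 genes with a GC content the corresponding r were -0.38, -0.24, -0.25 and 0.23. In the continuous cohort r of the 39 lay between 0.01 and 0.25. These are correlations across genes of the same libraries, which are not independent points. With the trends of counts on GC content and length taken out of every library, 12 members passed in AS CORT against AS vehicle, 11 of them among the 14, beside 16.4% of all genes tested. In AS CORT against WT CORT 5 passed, all lower (Syn1, Syp, Vamp1, Vamp2 and Cplx1), beside 18.6%. Between H17 and H18 and H13 to H16 only Vamp2 passed, beside 8.22%. In the interaction none of the 14591 genes passed edgeR's test, members included, and 2750 had an unadjusted p-value under 0.05. The members' median there was -0.10, with 28 of 39 below 0 and 13 at such a p-value.

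**Figure D5:**
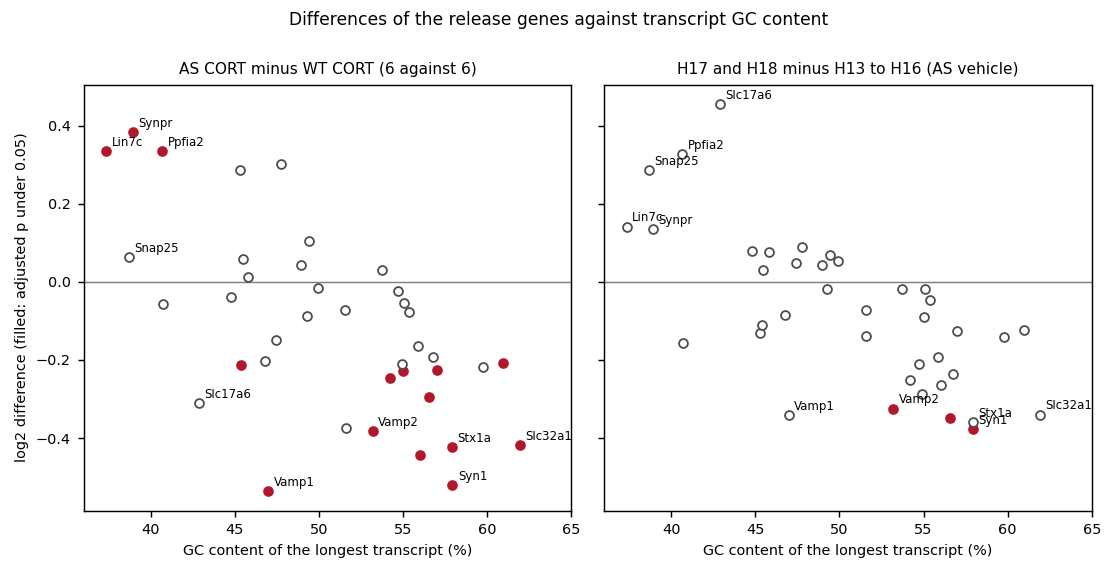
log2 difference of each of the 39 genes against the GC content of its longest transcript in percent, for AS CORT minus WT CORT (6 against 6 mice) and for H17 and H18 minus H13 to H16 among AS vehicle mice, with filled points for an adjusted p-value under 0.05. In both panels, of the 5 genes of lowest GC content Lin7c, Snap25, Synpr and Ppfia2 are above 0 and Syt4 is below 0, and the 5 of highest GC content, Stx1a, Syn1, Bsn, Ppfia3 and Slc32a1, are below 0.

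A list of 69 other genes of release, endocytosis and transmitter uptake was read beside the 39, of which 67 were tested. None passed in WT mice after acute CORT. In AS mice 18 did, 6 higher and 12 lower, beside 17.9% of all genes tested. Between AS CORT and WT CORT mice 25 differed, 11 higher and 14 lower, beside 24.9%, and 8 had an interaction, 6 of them below 0, beside 4.49%. With the covariate all 3 of these counts were 0, with 5, 3 and 6 genes at an unadjusted p-value under 0.05. An example of a lower gene, chosen after its values were seen as was the next, was Atp6v0a1, a subunit of the proton pump that drives vesicle filling, at -0.37 (SE 0.0695, adjusted p = 0.000883) in AS mice after CORT. The Syt relative Syt10 rose, with 9.05 ± 2.29 CPM in WT vehicle, 9.67 ± 2.84 CPM in WT CORT, 8.59 ± 1.52 CPM in AS vehicle and 17.51 ± 3.15 CPM in AS CORT mice, a difference of 1.03 (SE 0.172, adjusted p = 0.000302). With the covariate Atp6v0a1 had -0.14 (SE 0.0768, adjusted p = 0.689) and Syt10 0.82 (SE 0.248, adjusted p = 0.149). Between H17 and H18 and H13 to H16, 7 passed, 2 higher and 5 lower.

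One gene of that list, also singled out after its values were seen, differed between genotypes in both cohorts. Doc2a, a calcium-binding C2-domain protein of spontaneous and asynchronous release, lies at chr7:126847416-126852705 (plus strand, GRCm38), on the chromosome of Ube3a (chr7:59228750-59311536). In the acute cohort it had 15.9 ± 1.82 CPM in WT vehicle, 16.8 ± 3.84 CPM in WT CORT, 27.7 ± 3.86 CPM in AS vehicle and 21.8 ± 1.73 CPM in AS CORT mice (n = 6 each). The lowest AS vehicle mouse had 23.3 CPM and the highest WT vehicle mouse 18.2 CPM. AS minus WT was 0.80 (SE 0.116, adjusted p = 0.00132) with vehicle and 0.38 (SE 0.117, adjusted p = 0.0191) with CORT. With the covariate the vehicle difference was 0.91 (SE 0.119, adjusted p = 0.000437), and the one with CORT 0.73 (SE 0.195, adjusted p = 0.874). In the continuous cohort it had 15.6 ± 1.83 CPM in WT vehicle, 12.5 ± 1.85 CPM in WT CORT, 23.5 ± 0.885 CPM in AS vehicle and 19.6 ± 3.0 CPM in AS CORT mice (n = 4, 5, 4 and 5), and AS minus WT averaged over treatments was 0.61 (SE 0.0798, adjusted p = 0.00176), with CORT 0.64 (SE 0.108, adjusted p = 0.0371) and with vehicle 0.58 (SE 0.118, adjusted p = 0.142). All 9 continuous AS mice were above the WT mice of the same treatment. With each library left out in turn, the call was kept in 24 of 24 fits for acute vehicle, 22 of 24 for acute CORT, 18 of 18 for the continuous average and 7 of 18 for continuous CORT, and continuous vehicle passed in 0 of 18. Over all settings, the main fit included, the acute vehicle call was kept in 9 of 10. It was lost with AS vehicle reduced to H17 and H18 (0.57, adjusted p = 0.0623). Counted in the same way, the continuous average was kept in 6 of 7 and was lost with all 20 libraries (0.54, adjusted p = 0.229). The acute CORT call was kept in 7 of 8 and the continuous CORT call in 5 of 7, and continuous vehicle passed in 1 of 7. CORT lowered Doc2a in the continuous cohort, averaged over genotypes, with a log2 difference of -0.29 (SE 0.0796, adjusted p = 0.0249). Doc2a overlaps Ino80e on the other strand.

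Over 5 days of CORT, no member of the 39 passed the threshold in any comparison by edgeR. The backgrounds were 2.92% of all genes in WT mice, 3.77% in AS mice and 9.67% averaged over genotypes, and the members had 1, 1 and 2 with an unadjusted p-value under 0.05, with 0 called by DESeq2 in each. Their median log2 differences were 0.03 in WT mice, -0.003 in AS mice and 0.01 on average. The smallest adjusted p-value was that of Syn2, which had 842, 925, 983 and 768 CPM in WT vehicle, 705, 967, 739.6, 749 and 833 CPM in WT CORT, 998, 846, 1093 and 947 CPM in AS vehicle and 610.0, 904, 930.0, 681 and 821 CPM in AS CORT mice. Values with CORT were on average lower, with overlap, and the mean difference was -0.22 (SE 0.0841, adjusted p = 0.118). Syn3 had 6.43, 8.33, 5.69 and 8.12 CPM in WT vehicle, 11.03, 5.499, 9.68, 8.23 and 8.48 CPM in WT CORT, 5.28, 6.78, 7.56 and 7.14 CPM in AS vehicle and 10.7, 7.47, 6.83, 9.85 and 7.60 CPM in AS CORT mice. Here CORT mice tended to be higher, at 0.30 (SE 0.128, adjusted p = 0.161). Without the continuous WT CORT library H5 both passed, at log2 differences of -0.26 (Syn2, adjusted p = 0.0495) and 0.36 (Syn3, adjusted p = 0.0453).

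Members that fell in AS mice after the acute injection did not pass after 5 days. In the continuous AS mice CORT minus vehicle was -0.15 (SE 0.0825, adjusted p = 0.415) for Stx1a, -0.10 (SE 0.0847, adjusted p = 0.636) for Syn1, 0.02 (SE 0.0688, adjusted p = 0.925) for Vamp2, -0.09 (SE 0.0645, adjusted p = 0.562) for Slc17a7 and 0.01 (SE 0.103, adjusted p = 0.985) for Slc32a1. Ppfia2, at 0.05 (SE 0.0846, adjusted p = 0.861), and Lin7c, at 0.07 (SE 0.0770, adjusted p = 0.731), did not pass either. The interaction had 0 members called (background 0), 0 with an unadjusted p-value under 0.05 and 0 by DESeq2. Whether the acute and continuous effects differ was not tested, since the cohorts were normalized separately.

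Between genotypes in the continuous cohort, 0 members passed by edgeR with vehicle (background 0.0134%), with CORT (0.0401%) or averaged over treatments (0.348%), and 5, 10 and 13 had an unadjusted p-value under 0.05. DESeq2 called 0, 0 and 3, the last being Lin7c (-0.23, adjusted p = 0.0115), Vamp1 (-0.15, adjusted p = 0.0283) and Stx1a (0.20, adjusted p = 0.0467). By edgeR the averaged differences were -0.22 (SE 0.0542, adjusted p = 0.0721) for Lin7c, -0.15 (SE 0.0405, adjusted p = 0.0987) for Vamp1 and 0.21 (SE 0.0586, adjusted p = 0.120) for Stx1a.

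These 3 genes had the following values in the single mice. Lin7c had 91.4, 97.4, 94.1 and 85.1 CPM in WT vehicle, 103, 86.2, 102, 93.5 and 93.9 CPM in WT CORT, 72.6, 73.2, 92.6 and 74.5 CPM in AS vehicle and 88.7, 80.0, 83.8, 87.8 and 71.7 CPM in AS CORT mice. The AS vehicle value of 92.6 CPM was that of library H14, which also stood out for 7 thalamus markers (260 CPM in sum, against 67.8 to 128 CPM in the other 17). Vamp1 had 161, 164, 166 and 169 CPM in WT vehicle, 164, 178, 166, 172 and 170.3 CPM in WT CORT, 165, 148, 152 and 135 CPM in AS vehicle and 149.7, 164, 155, 134 and 156 CPM in AS CORT mice. WT mice kept a narrow range, and AS mice lay mostly below it. Stx1a had 107, 105, 107 and 90.7 CPM in WT vehicle, 85.9, 115, 90.8, 99.9 and 94.7 CPM in WT CORT, 126, 128, 108 and 123 CPM in AS vehicle and 104, 119, 112, 94.8 and 116 CPM in AS CORT mice. AS mice were on average higher, with overlap. Without H14, Lin7c passed at -0.27 (adjusted p = 0.00941), Stx1a at 0.23 (adjusted p = 0.0488) and Synpr at -0.41 (adjusted p = 0.0330). Without H5, Stx1a passed at 0.24 (adjusted p = 0.0318) and Lin7c at -0.24 (adjusted p = 0.0358). Lin7c and Stx1a thus had signs opposite to those of AS minus WT among acute CORT mice, 0.33 and -0.42, and the same signs as among acute vehicle mice, -0.20 and 0.22, neither of which passed. Vamp1 was below 0 in all 3, at -0.15 in the continuous cohort, -0.54 among acute CORT mice and -0.08 among acute vehicle mice.

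Ratios of related genes within a mouse, on the RPKM scale, do not depend on the library total. The 12 ratios were chosen after the values of single genes were seen and are given without a test. Vamp2 to Vamp1 was 17.7 ± 1.15 in WT vehicle, 17.1 ± 0.790 in WT CORT, 21.2 ± 0.804 in AS vehicle and 21.3 ± 1.0 in AS CORT mice of the continuous cohort. The 9 AS mice ran from 19.9 to 22.4 and the 9 WT mice from 15.7 to 18.8, the only one of 12 ratios without overlap between genotypes there. In the acute cohort, where 0 of 12 separated the genotypes, this ratio was 30.9 ± 2.36 in AS vehicle and 27.1 ± 1.55 in WT vehicle mice, 28.3 ± 1.57 in AS CORT and 25.7 ± 2.65 in WT CORT mice. Syn1 to Syn2 was 2.41 ± 0.249 in acute AS CORT mice and 2.94 ± 0.365 to 3.29 ± 0.344 in the other groups. Cplx2 to Cplx1 was 2.22 ± 0.322 in acute AS CORT mice and 1.61 ± 0.325 to 1.72 ± 0.165 elsewhere. The ratio of the glutamate to the GABA transporter, Slc17a7 to Slc32a1, stayed between 10.3 ± 0.908 and 12.2 ± 1.67 over the acute groups and 10.8 ± 0.951 and 12.5 ± 2.16 over the continuous ones.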

How the data were processed

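Per the labels and the study's methods, the authors sequenced stranded mRNA libraries as paired reads, aligned them with STAR to mm10 and counted reads per gene with HTSeq, with FastQC and MultiQC for quality. The deposited values are raw counts per gene, and the annotation release and strand setting of the counting are not given in the sources used here. The entries that name no gene (reads outside genes, ambiguous between genes, of low alignment quality, unaligned or aligned to several places) held 13.0% to 15.9% of the total per acute and 11.7% to 13.9% per continuous hippocampal library, and were left out of library sizes. A floor of 3 counts corresponds to 0.143 to 0.157 CPM in the acute libraries, and it covers counting error only.

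From these counts, genes over 20 normalized counts in at least 3 mice of a group were kept, and each cohort was fitted as 4 groups with edgeR 4.0.16 (TMM, quasi-likelihood test, R 4.3.3), with Benjamini-Hochberg adjustment over all genes tested and a threshold of 0.05. The study's exclusion of 2 continuous libraries was kept. Gene lengths, overlaps, coordinates and GC content came from GENCODE M21 on GRCm38, and promoters from RefSeq. Alternatives were DESeq2 1.42.0, other normalizations, no filter, a covariate for libraries H17 to H24, removal of GC and length trends (splines with 5 degrees of freedom) and leaving out single libraries. Comparisons with only H13 to H16, or only H17 and H18, as AS vehicle mice were added after the data were seen. The fit was tested on simulated data. No pair of libraries was identical. The labels do not say more about the independence of mice than that they are separate samples.

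All 39 genes are named. Full values are given for 22 chosen by their role and for genes that passed a test or had the highest or lowest differences. The members and lists were chosen with earlier results of these data known. The liver libraries entered no comparison.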

Additional observations from a re-analysis of the deposited data

Results flagged for a closer look

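Of 176 groups of 4 to 6 mice examined gene by gene, 8 held 1 mouse far from the rest, where chance gives about 1 in 20. Cplx2 had 3087.6 CPM in the acute WT CORT library H8, against 2401.6 to 2613.4 CPM in the other 5 mice. In the continuous cohort Syt1 had 1768.1 CPM in the AS vehicle library H2 (others 1499.7 to 1524.4), Snap25 had 2315.2 CPM in the WT CORT library H5 (others 1933.7 to 2026.2), Stx1a had 90.682 CPM in the WT vehicle library H17 (others 104.71 to 106.73) and Ppfia2 had 154.59 CPM in the WT CORT library H15 (others 183.08 to 189.18). The AS vehicle library H14 stood apart in 3 genes, with 179.77 CPM of Ppfia2 (others 142.35 to 147.09), 92.589 CPM of Lin7c (others 72.595 to 74.494) and 41.736 CPM of Slc17a6 (others 4.4996 to 9.6687), and it also had the highest sum of thalamus markers among the 18 libraries fitted.

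For 10 genes the acute response to CORT differed between AS and WT mice by the interaction term, on the log2 scale: Syn1 -0.602, Syngr1 -0.411, Sv2a -0.370, Stx1a -0.640, Vamp1 -0.452, Vamp2 -0.484, Cplx1 -0.557, Ppfia2 0.475, Lin7c 0.532 and Slc17a7 -0.431. None of these passed with the covariate for libraries H17 to H24.

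Outside the comparisons, the left-out library H9 had 282.73 CPM of Slc17a6 and the left-out library H13 had 162.62 CPM of Sv2c. In liver, 13 of the 39 genes had more than 3 counts in each of 20 libraries.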

How the results depend on the processing

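The 14 members called after acute CORT in AS mice became 0 with the covariate for libraries H17 to H24 and 0 against the vehicle mice H17 and H18 only. The 15 called between AS and WT mice after acute CORT became 5 with GC and length trends removed and 0 with the covariate, where Sv2a (0.005) and Slc17a7 (0.054) reversed sign. The 10 interaction calls became 0 with GC and length trends removed, where 0 of all genes passed and the members' median was -0.10, 0 with the covariate, where 1 of all genes passed and the median was -0.16, 0 with H17 and H18 only and 16 with H13 to H16 only. The 3 calls for the division among AS vehicle mice became 1 without a filter and 1 with trends removed. Averaged over continuous treatments, 0 genotype calls became 3 with DESeq2. Leaving out 1 library at a time gave 10 to 18 calls for acute CORT in AS mice, 12 to 18 between genotypes after acute CORT, 0 (without AS vehicle replicate 2, library H14) to 15 (without replicate 5, library H17) for the interaction, 0 to 4 for the division, 0 to 2 for continuous CORT averaged over genotypes and 0 to 3 for genotype averaged over continuous treatments. The other comparisons kept 0 calls in each of these fits. Over all alternatives run, 633 values kept their direction and side of the threshold, or for counts stayed within 1.5 times, 142 were weaker, 5 stronger and 2 reversed. The cause of the changes was not tested. No paired analysis was possible because replicates were numbered in accession order. With 2 AS vehicle libraries beyond H16, the covariate fit was less precise for the AS mice. The members' median SE for CORT against vehicle was 0.116 with the covariate and 0.0914 without it.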

Other observations

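The hippocampal libraries that the study left out lay outside the range of the other 18 continuous ones in most of the 39 genes. How many of all genes did so was not counted, so nothing particular to the 39 is read from this. In H9, an AS vehicle mouse, 24 genes were below the range of the 18, 8 above and 7 within. Slc17a7 was at 592 CPM (1744 to 2238 in the 18), Cplx2 at 340.3 CPM (1705 to 2365) and Vamp1 at 460 CPM (134 to 179), and 7 thalamus markers summed to 2034 CPM. In H13, a WT vehicle mouse, 28 genes were below, 4 above and 7 within. Slc32a1, the GABA transporter, was at 239 CPM (69.2 to 107), and 6 striatum markers summed to 3321 CPM.

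The 4 members with the highest levels in the 20 liver libraries were Napa, Lin7c, Vamp2 and Nsf. Napa had a median of 79.5 CPM (301 CPM in continuous hippocampus), Lin7c 36.7 CPM (88.2 CPM), Vamp2 21.4 CPM and Nsf 20.4 CPM. Syt2 had 0 counts in all 20, and 6 members had at most 3 counts in each.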
